A study of Mus musculus with 10 samples.

Results

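Malat1, Neat1, Miat, Gas5, Snhg1, Snhg12, Snhg18, Mir22hg, Dnm3os and Kcnq1ot1, all well-known long noncoding RNAs, were compared between young and old mouse aortae. They were picked by symbol, and all 10 were found among the 55453 gene symbols of the count table and passed its low-count filter. RNA came from the aortae of 10 male C57BL/6 mice, 5 young (14.5 weeks) and 5 old (92.5 weeks by the sample labels). No group carried a transgene, a mutant allele or a drug treatment according to the labels. Young and old mice were killed at the same time, the periadventitial fat was removed, and 1 poly(A) library was sequenced per mouse. Each aorta is a mixture of cell types, so that fewer cells of a type and less RNA per cell cannot be told apart.

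Long noncoding RNAs are transcripts that encode no conserved protein. Malat1, Neat1 and Miat are retained in the nucleus. Malat1 gathers in nuclear speckles, which store splicing factors, and Neat1 is the scaffold on which paraspeckles assemble. Gas5, Snhg1, Snhg12 and Snhg18 are host genes of small nucleolar RNAs (snoRNAs), guides for the chemical modification of ribosomal RNA that are cut from introns while the spliced host RNA goes on to the cytoplasm. Mir22hg and Dnm3os are host transcripts of microRNAs, and Dnm3os runs antisense inside the dynamin gene Dnm3. Kcnq1ot1 is made from the paternal chromosome, antisense inside the potassium channel gene Kcnq1, and silences nearby imprinted genes in cis. Host RNAs of snoRNAs commonly begin with a run of pyrimidines, as the mRNAs of ribosomal proteins do, and the spliced Gas5 RNA is a substrate of nonsense-mediated decay.

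The microRNAs inside the host transcripts are shown because they are the functional products of Mir22hg and Dnm3os that this poly(A) assay does not read. The mature sequences are from RefSeq (GRCm38.p6), and capitals mark the seed, bases 2 to 8, with which a microRNA pairs to its targets. Mir22, at chr11:75463734-75463755 and chr11:75463772-75463793 on the plus strand, lies in Mir22hg. Mir199a-2, at chr1:162217844-162217866 and chr1:162217883-162217904, and Mir214, at chr1:162223397-162223418 and chr1:162223438-162223459, lie on the plus strand in Dnm3os. The 6 arms have 6 different seeds.
mmu-miR-22-5p: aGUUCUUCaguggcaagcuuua
mmu-miR-22-3p: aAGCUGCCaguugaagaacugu
mmu-miR-199a-5p: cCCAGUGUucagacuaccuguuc
mmu-miR-199a-3p: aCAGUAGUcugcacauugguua
mmu-miR-214-5p: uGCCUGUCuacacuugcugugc
mmu-miR-214-3p: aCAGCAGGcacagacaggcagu

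The starts of the 4 snoRNA hosts are shown because the level of Gas5 moved with ribosomal protein genes between libraries, as described further on. Each window holds 30 bases around an annotated start (RefSeq, GRCm38.p6), read on the strand of the gene. Capitals mark the longest unbroken run of C and T that begins with C between 10 bases before and 11 after the start. Gas5 has 2 starts, the first at chr1:161034587-161034616 and the second at chr1:161035152-161035181 on the plus strand. The others are Snhg1 at chr19:8723473-8723502 (plus), Snhg12 at chr4:132308664-132308693 (plus) and Snhg18 at chr15:32244647-32244676 (minus). For comparison, the 4 annotated starts of the ribosomal protein genes most like Gas5 are printed, Rps21 at chr2:180257365-180257394 and chr2:180257435-180257464 (plus), Rpl9 at chr5:65391416-65391445 (minus) and Rps13 at chr7:116334175-116334204 (minus).
Gas5, first start: gggggcgggCCCgcgagctcgacagcccgg
Gas5, second start: gccgccatctcagCCTTTCggagctgtgcg
Snhg1: ttgttcttgtcggCCTCatttttccttgtt
Snhg12: gccgttctcagtCCTTTCTCgcttcatccg
Snhg18: ccttcccaggCCCCTCCTCTagccccgcct
Rps21, first start: accgaggacccgCCCTCCTgcccaatagtg
Rps21, second start: gacaagtgagcaggtaggCCTCggtgcggg
Rpl9: cgcagggCCCTgacggattacaagaacgtg
Rps13: agagCaaacgtcggtgagtggcgtcacttc

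A run of 5 or more was found at 3 of the 5 starts of the snoRNA hosts and at 6 of the 10 starts of the 9 members that had an entry, against 31.8% of 32851 promoters of all genes. The run was thus not particular to the snoRNA hosts, as Dnm3os, Miat and Mir22hg also held one, while Malat1 and Kcnq1ot1 did not. Of the 4 ribosomal protein starts 1 held such a run, the first start of Rps21. The rule for the run was set after values were seen, and the shares were not tested. Annotated starts can lie some bases from the true one, so a run or its lack describes this window only.

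None of the 10 long noncoding RNAs passed the test between young and old aortae. Of 14614 genes tested with edgeR's quasi-likelihood F test, 11.5% were called at an adjusted p below 0.05, 6.48% higher and 4.99% lower in old aortae. So were 5.93% of 843 annotated long noncoding RNA genes, 24 higher and 26 lower in old aortae. One member, Neat1, was below 0.05 before adjustment, where 26.7% of all genes and 16.0% of the long noncoding RNA genes lay. DESeq2 and limma-voom also called 0 of the 10, with Neat1 again alone below 0.05 unadjusted. The old and young values overlapped for all 10, whereas the groups did not overlap for 9.92% of all genes. The log2 fold change, old over young, was above 0 for 5 members and below 0 for 5, with a median of -0.0045, beside 0.0034 for all tested genes. The median size of the change was 0.12 for the members and 0.14 for all genes, and the median standard error 0.16 and 0.10.

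**Figure D1:**
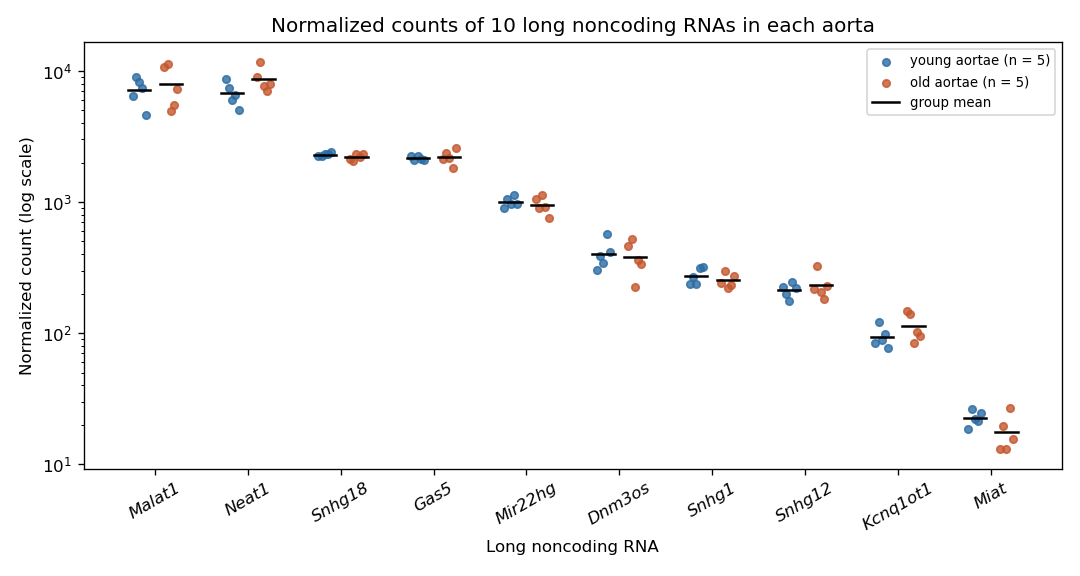
Normalized counts (log scale) of the 10 long noncoding RNAs in 5 young and 5 old aortae, each point 1 mouse and each bar the group mean. The levels span from about 7150 for Malat1 to about 22.5 for Miat in young aortae, and for every RNA the ranges of the young and old points overlap.

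Depth was similar in all libraries, with 19640401 to 22886153 counts on genes each. The 10 RNAs together took between 0.0722% of the counts (young 5) and 0.139% (old 2). Library old 2 stood apart with 11.0% of its counts on mitochondrial genes, against 4.50% to 6.51% in the others, and values without it are given where leaving it out turned a direction. The smooth muscle markers checked the tissue, with all 10 tested and summed normalized counts from 747700 to 960500 per library. Of the markers of other cells, 7 of 11 macrophage markers and 2 of 3 tested T cell markers were called higher in old aortae, and 3 of 11 fibroblast markers lower and 1 higher. One of 11 endothelial markers was called lower, 0 of 4 B cell, 0 of 8 adipocyte and 0 of 7 blood markers were called, and 1 of 10 smooth muscle markers was called higher. Few calls did not mean like levels. The log2 fold change was below 0 for 10 of 11 endothelial (median -0.56) and 7 of 8 adipocyte markers (-0.92). It was above 0 for all 4 B cell markers (1.32). The unadjusted edgeR p was below 0.05 for 6 endothelial, 4 adipocyte and 1 B cell markers, and for 26.7% of all genes. Among 8 Schwann cell and 6 skeletal and cardiac muscle markers, 1 was called in each direction.

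Malat1 (chr19:5795690-5802672, GRCm38, minus strand) had among the highest counts of the noncoding RNAs in these poly(A) libraries, ranking 4 of 843. Its counts differed widely between mice of the same age. How fully poly(A) selection captured Malat1 in each library was not measured. Its normalized counts, which are counts divided by DESeq2 size factors, were 6394, 9031, 8290, 7453 and 4583 in young aortae 1 to 5. They were 10770, 11350, 4934, 5469 and 7327 in old aortae 1 to 5. Old 1 and old 2 lay above every young aorta, while old 3 and old 4 lay near the lowest young one. The mean was 7150±1739 in the young mice and 7970±2965 in the old mice (SD, n=5), a log2 fold change of 0.16±0.27 (SE) with an edgeR adjusted p of 0.756. The 95% confidence interval ran from 0.737-fold to 1.70-fold. Without old 2 the log2 fold change was -0.0024.

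Neat1 (chr19:5824708-5845478, minus strand), 22036 bases from Malat1 and on the same strand, had the largest difference upward of the 10. The young counts were 8658, 7422, 6007, 6591 and 4993, and the old counts 8975, 11740, 7651, 7019 and 7916. Old 1 and old 2 again lay above all young values, and the other 3 old aortae lay within the young range. The mean was 6734±1392 in the young mice and 8661±1862 in the old mice, a ratio of 1.29. The log2 fold change was 0.37±0.17 with an unadjusted p of 0.0460 and an edgeR adjusted p of 0.178. Without old 2 it was 0.23, with an unadjusted p of 0.129, and the unadjusted p of Neat1 was at or above 0.05 in 8 of 19 alternative fits. The confidence interval was 1.01-fold to 1.66-fold, and the exact permutation test of the means gave p = 0.0952 (two-sided). Its annotated transcripts are 711, 1030, 3004 and 20771 bases long and share exonic sequence, so that the gene count does not tell the long paraspeckle form from the short ones.

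Miat (chr5:112213228-112229395, minus strand), known in the heart as the myocardial infarction associated transcript, was the least abundant member, with a count rank of 544 of 843. It had 18.4, 26.2, 21.9, 21.2 and 24.6 normalized counts in the young mice and 12.99, 19.6, 13.05, 27.0 and 15.6 in the old mice. Old 1, old 3 and old 5 fell below every young one, but old 4 held the highest value of all 10. The log2 fold change of -0.34±0.25 had an edgeR adjusted p of 0.429 and an interval from 0.542-fold to 1.15-fold. Without old 4 it was -0.55, with an unadjusted p of 0.0442 and an adjusted p of 0.184. At about 20 counts per library the counting error adds to the spread between mice. Exons of an antisense gene, Gm26953, cover 24.3% of Miat's exonic length, but that gene had 1 count in all libraries together.

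Of the proteins that share the nuclear bodies with Malat1 and Neat1, 0 of 20 tested paraspeckle genes and 0 of 20 tested nuclear speckle genes were called. Their median log2 fold changes were -0.01 for both lists. The most abundant paraspeckle gene, Hnrnpk, an RNA-binding protein, had 7798±324 normalized counts in the young mice and 7372±356 in the old mice (log2 fold change -0.07±0.06, edgeR adjusted p = 0.450). Son, a core protein of nuclear speckles, was at 9101±611 and 9163±1387 (0.02±0.10, edgeR adjusted p = 0.934).

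The 4 snoRNA hosts differed little with age, and Snhg18 and Gas5 had the narrowest intervals of the 10 RNAs. Snhg18 (chr15:32240565-32244662, minus strand) had 2234, 2225, 2318, 2320 and 2402 normalized counts in the young mice and 2137, 2039, 2323, 2206 and 2320 in the old mice. Old 1, old 2 and old 4 lay just below the young range. The means were 2300±72.6 and 2205±122, with a log2 fold change of -0.05±0.05, an edgeR adjusted p of 0.573 and an interval from 0.891-fold to 1.04-fold.

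Gas5 (growth arrest specific 5, chr1:161034422-161038539, plus strand) had 2239, 2095, 2259, 2144 and 2101 normalized counts in the young mice and 2139, 2382, 2183, 1814 and 2594 in the old mice. The young aortae were almost alike, with a coefficient of variation of 3.55%, and the old ones spread to both sides of them, with 13.1%. The difference in spread was not tested. The log2 fold change in level was 0.04±0.08 with an edgeR adjusted p of 0.783, and the interval ran from 0.914-fold to 1.16-fold. Without old 5 the log2 fold change was -0.02.

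Snhg1 (chr19:8723475-8726443, plus strand) had 236, 267, 236, 313 and 321 normalized counts in the young mice and 243, 299, 219, 231 and 270 in the old mice. Only old 3 and old 4 lay below the young range, and none lay above it. Its log2 fold change was -0.11±0.12 with an edgeR adjusted p of 0.583. Snhg12 (chr4:132308623-132311024, plus strand) had 225, 198, 177, 243 and 220 counts in the young mice and 216, 327, 205, 181 and 229 in the old mice. Old 2 was its highest library, and the others overlapped. Its log2 fold change was 0.13±0.15 with an edgeR adjusted p of 0.635, and -0.03 without old 2.

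The snoRNAs themselves were almost unseen. All 10 annotated in Gas5, 8 in Snhg1 and 5 in Snhg12 had 0 counts in every library. Only Snord123 inside Snhg18 had counts, between 18 and 34 per library, with 130 in all young and 137 in all old libraries. Poly(A) libraries are not designed to read such short RNAs, and most of them also lie in annotated exons of their hosts, where a read fits both genes. The treatment of such reads in the counting is not given in the sources used here.

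A list of other snoRNA hosts, which also held Rmrp although it is not a host gene, had 22 tested genes. Of these 1 was called, Snhg11, which rose. It had 4.10 to 21.5 normalized counts in the young mice and 30.8 to 54.5 in the old mice, which did not overlap (log2 fold change 2.04±0.37, edgeR adjusted p = 0.00339). The most abundant of that list, the heat shock cognate gene Hspa8, was at 38654±11080 and 24314±4336 (-0.66±0.20, edgeR adjusted p = 0.0588), and Hspa8 was called lower without young 1 (0.0040) or old 1 (0.0366). The proteins that bind snoRNAs had 0 of 13 called, and Nop10, the most abundant, was at 1013±33.9 and 973±86.3 normalized counts. Of 14 factors of nonsense-mediated decay 1 was called, Rbm8a, a core protein of the exon junction complex, which fell by 0.31±0.09 on the log2 scale (edgeR adjusted p = 0.0328). The call of Rbm8a was lost without young 2, 3 or 4 or old 2, 3 or 4, with adjusted p-values from 0.0568 to 0.0902. Smg1, the kinase of that pathway and its most abundant gene, was at 4227±425 and 4105±735.

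Neither microRNA host passed the test. Mir22hg (chr11:75461539-75466676, plus strand) had 902, 1047, 958, 1136 and 970 normalized counts in the young mice and 1058, 907, 1140, 922 and 754 in the old mice. One old aorta lay just above and 1 below the young range. The log2 fold change was -0.06±0.10 with an edgeR adjusted p of 0.764 and an interval from 0.822-fold to 1.12-fold. It turned to 0.02 without old 5. An exon of Tlcd2 on the same strand covers 10.7% of Mir22hg's exonic length.

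Dnm3os (chr1:162217623-162225550, plus strand) had 301, 384, 340, 572 and 416 normalized counts in the young mice and 460, 522, 223, 361 and 336 in the old mice. Young 4 was the highest and old 3 the lowest of all, and leaving out either turned the direction, to 0.08 without young 4 and 0.07 without old 3. With all libraries the log2 fold change was -0.08±0.23 (edgeR adjusted p = 0.870, interval 0.667-fold to 1.35-fold). The genes of Mir22, Mir199a-2 and Mir214 had 0 counts in every library, so the levels of the 6 mature microRNAs printed above were not measured.

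Of 9 other tested microRNA hosts, 1 was called lower, Rian, an imprinted noncoding RNA of the Dlk1-Meg3 domain. It fell from 1403±109 to 976±76.3 normalized counts, without overlap (log2 fold change -0.51±0.07, edgeR adjusted p = 0.000528). Rian also gave the only call among the 20 other tested long noncoding RNAs. The most abundant microRNA host, 3110039I08Rik (Mir100hg), was at 2249±375 and 2677±579 (0.26±0.16, edgeR adjusted p = 0.337). The most abundant of the other long noncoding RNAs, 1700020I14Rik (Oip5os1), was at 3986±304 and 3428±213 (-0.21±0.07, edgeR adjusted p = 0.0615, called lower without young 4). None of 13 genes that process or use microRNAs was called, and Ago2, which holds the microRNA in the silencing complex, was at 3609±487 and 3363±359.

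Kcnq1ot1 (chr7:143203458-143296549, minus strand) is annotated as a single exon of 93.1 kb. It had 83.8, 122, 88.7, 97.5 and 76.9 normalized counts in the young mice and 147, 141, 83.9, 102 and 94.3 in the old mice. Old 1 and old 2 exceeded all young aortae, as they did for Malat1 and Neat1. The log2 fold change was 0.28±0.18 with an edgeR adjusted p of 0.362 and a log2 interval from -0.12 to 0.68. It was 0.17 without old 1. Kcnq1, which spans it on the opposite strand, had 38.9±16.7 normalized counts in the young mice and 30.7±11.5 in the old mice (-0.34±0.32, edgeR adjusted p = 0.555). The strand setting of the counting is not given in the sources used here. Without one, reads of the 2 genes where they overlap could not be told apart. In the imprinted domain 0 of 9 tested genes were called, including Cdkn1c, a cell cycle inhibitor that Kcnq1ot1 is known to silence in cis (460±42.6 and 535±54.3, 0.23±0.09, edgeR adjusted p = 0.109). Cd81, the most abundant gene of the domain, was at 9259±378 and 8480±757.

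**Figure D2:**
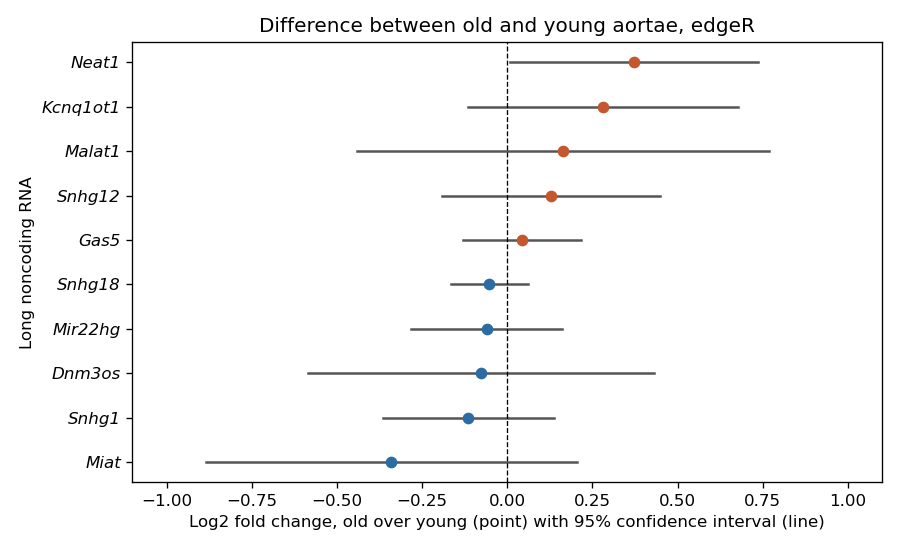
Log2 fold change, old over young, of each long noncoding RNA (point, red above 0 and blue below) with its 95% confidence interval from the edgeR fit (line). Only the interval of Neat1, 0.01 to 0.73, leaves out 0, and Snhg18 has the narrowest one.

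Immediate early and glucocorticoid-responsive genes were counted beside the RNAs because handling, stress and time of day move them. Of 24 immediate early and stress genes 1 was called higher and 6 lower, with a median log2 fold change of -0.40. Junb, a subunit of AP-1, rose from 1181±260 to 2009±370 normalized counts (0.77±0.16, edgeR adjusted p = 0.00957). Atf3, a stress-induced repressor, fell from 2725±1246 to 557±194 (-2.28±0.39, edgeR adjusted p = 0.00596), and Jund and Ier5 fell by 0.45 and 0.98. Dusp1, the most abundant, was at 6441±829 and 5397±1550. Of 16 glucocorticoid-responsive genes 1 was called, Errfi1, which fell by 1.36±0.23 (edgeR adjusted p = 0.00447).

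Levels of different RNAs were compared per kilobase of exonic sequence, which accounts for length but not for how fully poly(A) selection captures each RNA. On this scale Snhg18 had the highest level. Its median over the 10 libraries was 1532 normalized counts per kilobase, followed by Malat1 at 1058, Gas5 at 575, Mir22hg at 501 and Neat1 at 363. Snhg12 (90.8), Snhg1 (85.8) and Dnm3os (47.0) formed a middle range, and Miat (2.20) and Kcnq1ot1 (1.03) were lowest. Neighbours in this order overlapped in their range over libraries, except that Neat1 was above Snhg12, Snhg1 above Dnm3os and Dnm3os above Miat in all 10 libraries without overlap. Malat1 was also above Gas5 in all 10 libraries, although the ranges overlapped. With the length of the longest transcript in place of all exons, Gas5 came to 846 and Snhg12 to 142. The value of Neat1 rests on 20771 bases, although its shorter annotated transcripts have 711, 1030 and 3004. The order differed from that by count, in which Neat1 ranked 3, Malat1 4, Snhg18 9 and Gas5 10 of the 843 long noncoding RNA genes over both ages. By group mean of normalized counts, which are not adjusted for length, Malat1 was above Neat1 in young aortae and below it in old ones. Likewise, Snhg18 was above Gas5 in young aortae and below it in old ones. Neither order held in every library of a group. Neat1 was above Malat1 in young 1 and young 5, and below it in old 1. Gas5 was above Snhg18 in young 1 (2239 and 2234), and below it in old 3 and old 4. These changes of order were not tested. Per kilobase neither order turned. Malat1 was at 1024 in young and 1141 in old aortae, and Neat1 at 324 and 417. Snhg18 was at 1547 and 1484, and Gas5 at 576.5 and 591.

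The differences between mice of the same age were then compared among the members, as deviations of log2 CPM from the group mean over the 10 libraries. Kcnq1ot1 moved with Malat1 (Pearson r = 0.886, Spearman rho = 0.891), and was number 31 of the 14613 other genes in likeness to it. Without the 2 libraries farthest from Malat1's median, young 5 and old 3, r was 0.823. Neat1 moved against Snhg18 (r = -0.828, rho = -0.758, and r = -0.668 without young 1 and old 2). An exact two-sided permutation of libraries within each group gave p = 0.00646 for the r of Malat1 and Kcnq1ot1 and p = 0.00389 for rho, and p = 0.0034 and p = 0.0221 for Neat1 and Snhg18. Adjusted over the 45 pairs of members, these were 0.145 and 0.175, and 0.145 and 0.21, so that no pair passed 0.05 by either measure. Malat1 and Neat1, neighbours on chromosome 19, had r = 0.687 (0.536 without young 5 and old 3) and rho = 0.758, with exact permutation p-values of 0.0373 and 0.0233 that came to 0.247 and 0.21 after adjustment.

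**Figure D3:**
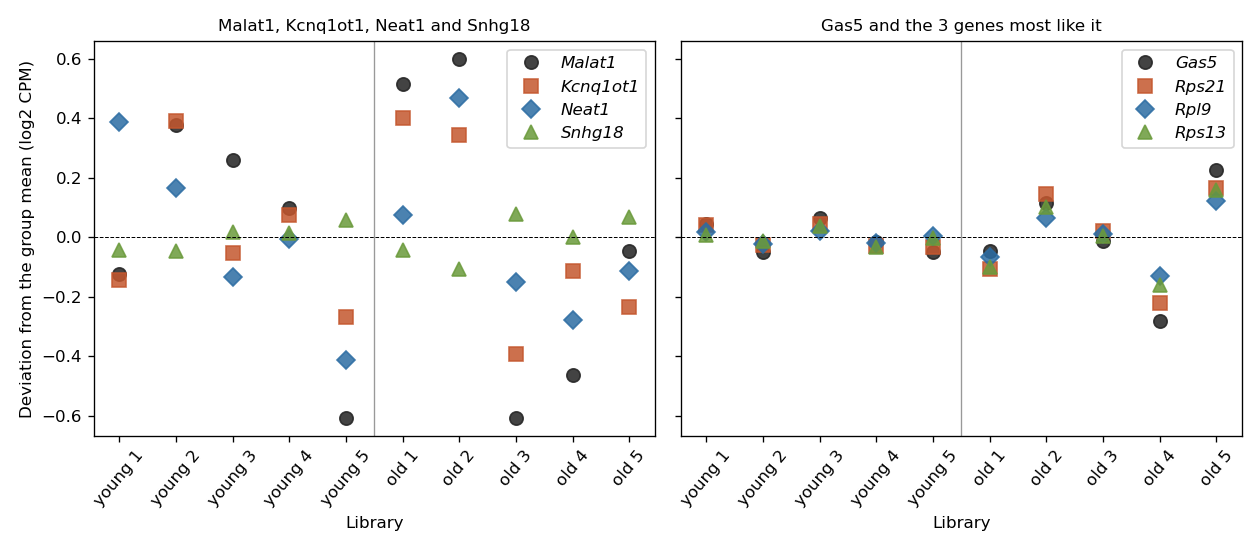
Deviation of log2 CPM from the group mean in each library, for Malat1, Kcnq1ot1, Neat1 and Snhg18 (left) and for Gas5 with Rps21, Rpl9 and Rps13, the 3 genes most like it (right). Malat1 and Kcnq1ot1 are high in young 2, old 1 and old 2 and low in young 5 and old 3, while Snhg18 stays within 0.11 of 0, and Gas5 and its 3 genes are lowest in old 4 and highest in old 5.

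Other measures of the libraries moved too. The deviations of the mitochondrial share had r = 0.64 with Malat1, 0.735 with Neat1 and -0.748 with Snhg18, and those of the total count had -0.688 with Neat1 and 0.685 with Snhg18. Old 2 had the highest mitochondrial share (11.0%) and the lowest total count (19640401). It also had the highest deviation of Malat1 (0.598) and Neat1 (0.469) within the old group and the lowest of Snhg18 (-0.106). No r without old 2 is given here. The summed fibroblast markers, at 213700 to 258200 normalized counts in the young mice and 153400 to 215900 in the old mice, had r = -0.774 with Malat1 and 0.695 with Snhg18. Collagen I weighs heavily in this sum, with means of 58611 (young) and 31070 (old) for Col1a1 and 88264 and 52121 for Col1a2. Of the 11 markers 5 had a log2 fold change above 0 and 6 below, so the sum does not measure fibroblast content. Sums of other markers moved with members too, such as smooth muscle with Neat1 (-0.683) and Schwann cell with Snhg1 (-0.768). The Schwann cell sum, 5625 to 7473 normalized counts in the young mice, was mostly Pmp22, with a young mean of 4917. Pmp22 was called lower in old aortae, while 6 of the 8 Schwann cell markers had a log2 fold change above 0. The part of all these measures in the likeness of the members was not tested.

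Gas5 moved with the ribosomal protein genes. The 3 genes with the most similar deviations were Rps21 (r = 0.957), Rpl9 (0.956) and Rps13 (0.939), all proteins of the ribosome. After these were seen, the ribosomal protein genes among the 50 genes most like Gas5 were counted. There were 30 (60.0%), while 78 (0.534%) of all tested genes belong to this family, and 0 were found among the 50 most like Malat1, Neat1 or Mir22hg. The median r of Gas5 with the 78 genes was 0.833, beside -0.019 with all tested genes, and 77 of the 78 were above 0. Gas5 and the mean deviation of the family had r = 0.899 and rho = 0.879 over 10 libraries. Without old 4 and old 5, the lowest and highest in both, r was 0.714. Within young aortae alone, where Gas5 varied least, it was 0.543, and within old aortae 0.928. These values are descriptions over libraries that share all genes' normalization, and no test was made of a relation chosen in this way. With age, 0 of the 78 ribosomal protein genes were called. The other snoRNA hosts among the members were less like Gas5 by value, without a test. Their r was 0.248 for Snhg1, 0.496 for Snhg12 and 0.026 for Snhg18. Hosts outside the members are not compared with Gas5 here.

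The genes most like Malat1 were Gm43185 (r = 0.954), Tia1 (0.95), an RNA-binding protein of stress granules, and Las1l (0.949), a factor of ribosomal RNA processing. Those most like Neat1 were Trim7 (0.972), Zfp446 (0.966) and Gstk1 (0.962). Those most like Mir22hg were Stac2 (0.977), Exosc4 (0.927), a subunit of the RNA exosome, and Bop1 (0.914), a ribosome biogenesis factor. None of these genes was called between young and old aortae.

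The genes beside the members were tested in the same fit. Of the 22 neighbours reported that are not members themselves, 3 were called (11.5% of all genes were). Sema5a, a transmembrane semaphorin that starts 148 bases from Snhg18 on the other strand, fell from 3882±290 to 3063±367 normalized counts (log2 fold change -0.33±0.08, edgeR adjusted p = 0.0196). Frmd8, 4.22 kb from Neat1 and a cofactor of the iRhom proteins, rose from 445±34.96 to 533±40.8 (0.27±0.08, edgeR adjusted p = 0.0362). Wdr81, 6.82 kb from Mir22hg on the other strand, rose from 514±49.4 to 646±56.8 (0.34±0.08, edgeR adjusted p = 0.0180). Without young 4 none of the 22 was called, with adjusted p-values of 0.0522 for Sema5a, 0.0518 for Wdr81 and 0.0950 for Frmd8. Frmd8 also lost its call without young 2 (0.0980), old 2 (0.0789), old 4 (0.0796) or old 5 (0.0826). Whether Sema5a and Snhg18 changed unequally was not tested.

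**Figure D4:**
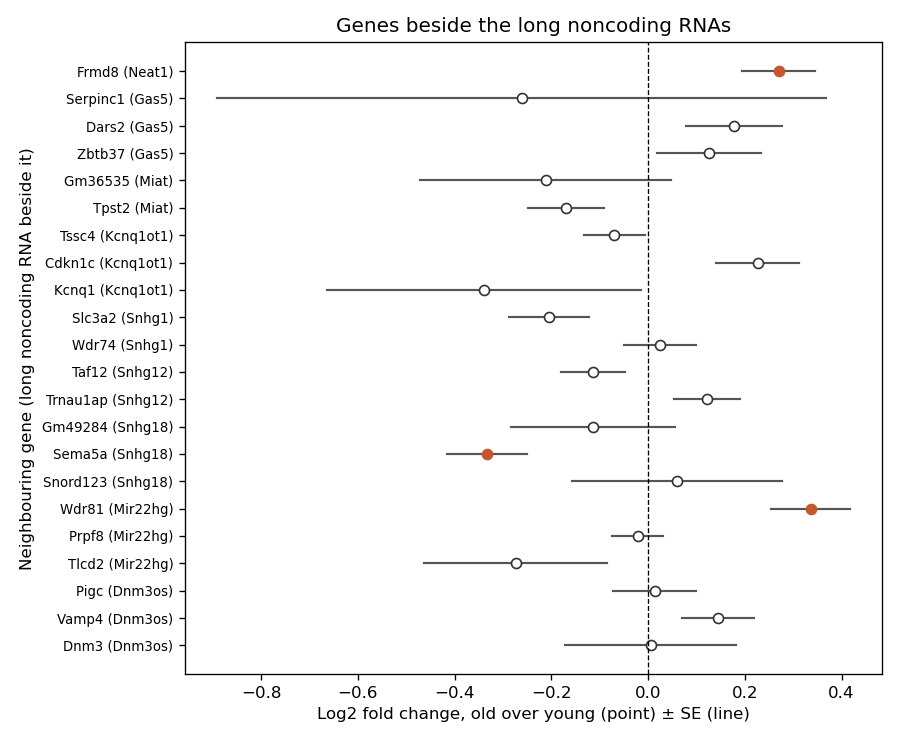
Log2 fold change, old over young (point), with its SE (line), of 22 genes beside or overlapping the long noncoding RNAs, which are named in brackets. Filled points are the 3 genes called by edgeR, Frmd8 and Wdr81 to the right of 0 and Sema5a to the left, and open points are the others.

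Genes that lie closest to or overlap the other hosts were not called. Slc3a2, the heavy chain of amino acid transporters, starts 106 bases from Snhg1 on the other strand and was at 1676±141 and 1446±162 normalized counts (-0.21±0.08, edgeR adjusted p = 0.128, and 0.0423 without old 2). Trnau1ap, 739 bases from Snhg12, was at 490±33.1 and 531±34.2 (0.12±0.07, edgeR adjusted p = 0.281). Zbtb37, which overlaps Gas5 on the other strand, had an edgeR adjusted p of 0.500, Tlcd2 beside Mir22hg 0.391 and Dnm3 around Dnm3os 0.991. These 5 genes were singled out after their values were seen.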

How the data were processed

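RNA-seq libraries (TruSeq Stranded mRNA, 1 per mouse) of 5 young and 5 old aortae were analysed. Per the labels and the study's methods, the authors filtered reads with fastp 0.20.0, aligned them to GRCm38 with STAR 2.7.0f and counted them per gene with featureCounts of Subread 1.6.4. The deposited values are these raw counts, without normalization. The annotation used here for positions and lengths was GENCODE M21 of the same build. Genes were kept by filterByExpr and compared with the robust quasi-likelihood F test of edgeR 4.0.16 (TMM scaling, R 4.3.3), with Benjamini-Hochberg adjustment over all tested genes, which were 14614 of 28011 with a count. Alternatives used DESeq2 1.42.0, limma 3.58.1 (voom), other scalings and filters, an offset for GC content and length (GC of the longest transcript), a replicate block, an adjusted p below 0.01, and fits that each left out 1 mouse.

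Total counts were 19640401 to 22886153 per library, and both counting error and the spread between mice enter each standard error. No pair of libraries of a group agreed within sampling noise. The fits were also run on simulated data with larger changes than those of the members. That run does not show whether changes as small as theirs would be called.

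The members and gene lists were chosen with earlier results of these data known. The named genes are the members, in each list the most abundant gene and up to 3 called genes per direction, the nearest neighbours (1 is not reported here), and the 3 genes most like Malat1, Neat1, Gas5 and Mir22hg. The ribosomal protein count, its symbol pattern, the pyrimidine run and the likeness without 2 libraries were set after values were seen.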

Additional observations from a re-analysis of the deposited data

Results flagged for a closer look

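In 168 groups of 5 values (the genes named by the rule, the mitochondrial share and the total count, in young and in old aortae), the gap of the extreme library to its nearest neighbour, as a share of the group's range, was above Dixon's critical value of 0.71 in 10. Chance flags about 1 in 20 such groups. None of the 10 long noncoding RNAs was among them.

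Library old 2 was apart in 3. Its mitochondrial share was 11.0% against 5.19% to 6.51% in the other old aortae (0.774), Junb was at 2668 normalized counts against 1785 to 1876 (0.897), and Acta2, smooth muscle actin, at 289800 against 358000 to 377000 (0.782). Old 3 was highest for the macrophage genes F13a1, at 4275 against 2452 to 2869 (0.771), and Fcgr1, at 130 against 71.9 to 86.9 (0.739), and for the cardiac troponin Tnnt2, at 1545 against 506 to 785 (0.732). Young 3 was lowest for Col1a1, at 44380 against 59990 to 66100 (0.719). Young 4 was lowest for Prx, at 360 against 452 to 487 (0.725), and highest for Taf12 beside Snhg12, at 531 against 477 to 491 (0.746). Young 5 was lowest for Gm43185, the gene most like Malat1, at 84.0 against 118 to 129 (0.749).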

How the results depend on the processing

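The count of members called was 0 under all 19 alternative fits, and the lowest adjusted p of any member was 0.0635, for Neat1 with the replicate block. The stricter threshold of 0.01 could only give 0 as well, so it adds nothing for the members. The replicate numbers did not pair the mice (correlations of same-numbered deviations from -0.30 to 0.13), and the block left 0 members and 1261 genes of the table called. Neat1 kept a positive log2 fold change, from 0.23 (without old 2) to 0.48 (without young 1). When 1 mouse was left out, Miat ran from -0.55 to -0.25, Kcnq1ot1 from 0.17 to 0.39, Snhg1 from -0.19 to -0.06 and Snhg18 from -0.07 to -0.03. Members with intervals as wide as that of Malat1 could differ by more than 1.5-fold without a call at this number of mice, and for Miat few counts limit the precision.

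The genes called on the lists other than the cell type markers, 11 as reported, numbered 23 with DESeq2 and 6 at an adjusted p below 0.01, and 8 to 24 when 1 mouse was left out (24 without young 1). Neighbours called were 0 at the threshold of 0.01 and 0 to 3 when 1 mouse was left out. With the block, Atf3 (adjusted p = 0.0703), Rbm8a (0.0795) and Frmd8 (0.0913) lost their calls, and with DESeq2 Hspa8 (0.00417) and Oip5os1 gained one. The cause of these shifts was not tested, apart from the stricter threshold.

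Directions turned only for genes without a call. When 1 mouse was left out, the log2 fold change ran from -0.0024 to 0.29 for Malat1, -0.0163 to 0.11 for Gas5, -0.0314 to 0.20 for Snhg12, -0.13 to 0.0156 for Mir22hg and -0.22 to 0.0835 for Dnm3os. It ran from -0.10 to 0.11 for Dnm3, -0.0535 to 0.019 for Gstk1, -0.31 to 0.30 for Hbb-bs, -0.058 to 0.0424 for Las1l, -0.0235 to 0.0795 for Pigc and -0.035 to 0.0592 for Rps21. It ran from -0.84 to 0.39 for Serpinc1, -0.11 to 0.0556 for Smg1, -0.0369 to 0.15 for Snord123, -0.0382 to 0.0964 for Son, -0.0579 to 0.135 for Trim7 and -0.0145 to 0.0661 for Wdr74. With DESeq2, Dnm3 was -0.0036, Las1l -0.0055 and Rps21 -6e-04, and with limma-voom Dnm3 was -0.0226 and Las1l -0.0014. With DESeq2 size factors in edgeR, Dnm3 was -0.0023, Las1l -0.0054 and Rps21 -6e-04. With upper-quartile factors Gstk1 was 0.0207 and Prpf8 0.0056, and with library size alone they were 0.0175 and 0.0033. With the GC and length offset Pigc was -0.0146, Rps21 -0.0126 and Wdr74 -0.0262, without a count filter Las1l was -0.0017, and with the block Dnm3 was -0.0087. In likeness, without old 4 and old 5, the r of Gas5 turned to -0.016 with Snhg1 and -0.468 with Snhg18.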
